A study of Mus musculus with 15 samples.

Results

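The 7 single genes of unrelated function are described here across the kidneys of Hyp mice, of Hyp mice given a gene therapy vector and of wild-type mice. The genes are Greb1, Tmem252, Npl, Prkag3, Fat2, Ctnna2 and Susd2, and they make up 7 of the 26823 named genes in the deposited count tables. They were picked by name because they differed between Hyp and wild-type (WT) kidneys in these same libraries, so that difference chose the genes and is given as a description only. The choice set no numerical threshold. All 7 passed the filter on low counts in a table of 15789 tested genes. Greb1, Tmem252 and Npl were higher in Hyp than in WT kidneys, and Prkag3, Fat2, Ctnna2 and Susd2 were lower.

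Whole kidney RNA was sequenced from 15 mice aged 4 months, with 5 mice in each of 3 groups. The cFGF23-Hyp mice were Hyp mice that received an adeno-associated virus encoding cFGF23 (AAV-cFGF23) into a vein when they were 4 weeks old, at 1e+12 vector genomes (vg) each, and were killed 3 months later. The Hyp mice, called Hyp-Duk in the design text, carry the genotype label Phex_KO and received phosphate buffered saline (PBS), as did the WT mice. The sources used here do not say which promoter drives the vector, and no group of WT mice with the vector was analysed here.

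FGF23 is a hormone made mainly by bone cells that acts on the kidney through FGF receptors and the co-receptor Klotho, lowering phosphate reabsorption and the synthesis of active vitamin D. Loss of Phex raises FGF23 and causes X-linked hypophosphataemia, for which the Hyp mouse is a model. cFGF23 is the carboxy-terminal fragment of the hormone and competes with it at the receptor. The genes described here are not textbook members of that pathway. Npl encodes N-acetylneuraminate lyase, which splits sialic acid into N-acetylmannosamine and pyruvate. Prkag3 encodes a nucleotide-binding regulatory subunit of the AMP-activated protein kinase (AMPK) best known from skeletal muscle. Fat2 encodes a very large atypical cadherin, and Ctnna2 an alpha-catenin best known from neurons, which ties cadherin complexes to actin. Susd2 encodes a membrane protein with a sushi domain, Tmem252 a transmembrane protein, and Greb1 a protein first known as an oestrogen-induced partner of the oestrogen receptor in human breast cancer cells.

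Several libraries stood apart or went against their labels. A single library, WT_5 by its title, carries Phex_KO as its genotype and Hyp as its cell type. Phex counts were between 0 and 3 throughout, in WT too, so they could not check the genotypes. On a principal component analysis of all tested genes, cFGF23-Hyp_3 lay at 76.08 on the first component, with the other 14 libraries at -17.10 to 11.93, and it had the fewest detected genes (20444). cFGF23-Hyp_5 lay at 35.46 on the second component, next to WT_1 (29.03) and WT_2 (27.37), while the other 4 cFGF23-Hyp libraries lay at -13.93 to -7.28. WT_5 lay at -3.66 on the second component, within the Hyp range (-28.79 to -2.82) and below the other WT libraries (5.02 to 29.03). On the first component WT_5 lay at -5.97, between the Hyp libraries (-17.10 to -8.08) and the other WT libraries (-5.04 to 11.93). In Hyp_4 the summed level of 4 adrenal cortex markers (Cyp11b1, Cyp11b2, Cyp21a1 and Star) was 864 CPM (read counts scaled to a common library size), against 3.68 to 8.98 CPM in the other 14 libraries. The summed level of 7 proximal tubule markers, 13100 to 14400 CPM in cFGF23-Hyp, 11900 to 13100 CPM in Hyp and 13600 to 14800 CPM in WT kidneys, showed abundant kidney RNA in every library. Of 18 marker lists for cell types and neighbouring tissues, 4 had sums that were higher in every Hyp than in every WT library and 1, that of the proximal tubule, sums that were lower. Those higher were B and plasma cell markers (50.2 to 268 CPM in cFGF23-Hyp, 203 to 523 CPM in Hyp and 59.9 to 163 CPM in WT kidneys), podocyte markers (196 to 267, 268 to 367 and 201 to 257 CPM in the same groups), macrophage markers (76.7 to 131, 111 to 120 and 90.5 to 107 CPM) and hepatocyte markers (74.3 to 1290, 955 to 1880 and 75.9 to 478 CPM). The highest WT sum of the hepatocyte markers was that of WT_5, with 75.9 to 104 CPM in the other WT libraries. The lowest treated sum was that of cFGF23-Hyp_5, with 714 to 1290 CPM in the other treated libraries. Ttr made up most of the hepatocyte sums (55.5 to 1260, 917 to 1850 and 44.3 to 463 CPM). The other tested genes of that list had log2 fold changes of Hyp over WT of 1.45 (Alb, edgeR adjusted p = 0.155) and -0.05 (Apoh). Of the genes on these lists, Jchain, which encodes a chain of secreted antibodies, passed edgeR's test for Hyp against WT (log2 fold change 1.87, adjusted p = 0.0478). On its list, Igha (1.86) and Igkc (1.60) went the same way with edgeR adjusted p of 0.0676 and 0.0738. Mzb1 went the other way (-0.33), and Cd79a was under the filter on low counts. Whether the numbers of any of these cell types differed was not tested, nor was their part in the levels of Greb1, Tmem252 and Npl, which were higher in the same group. Total counts per library ran from 13083190 to 21829906.

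Promoter sequences of the 3 genes that were higher in Hyp kidneys are shown because they form the smaller set that differed in 1 direction and because 2 of the windows printed hold a searched motif. Each runs 5′ to 3′ over the 250 bases before a RefSeq start of the gene (build GRCm38.p6), on the gene's own strand, with a matched motif in capitals. The windows were found by symbol and were not joined to the coordinates of the deposited tables.
Npl, chr1:153549715-153549964, minus strand: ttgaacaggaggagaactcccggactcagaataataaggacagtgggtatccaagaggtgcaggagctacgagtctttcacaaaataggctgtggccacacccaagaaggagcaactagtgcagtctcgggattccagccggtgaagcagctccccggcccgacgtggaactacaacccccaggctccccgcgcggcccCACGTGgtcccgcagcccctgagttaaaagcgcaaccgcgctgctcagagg
Tmem252, chr19:24673758-24674007, plus strand: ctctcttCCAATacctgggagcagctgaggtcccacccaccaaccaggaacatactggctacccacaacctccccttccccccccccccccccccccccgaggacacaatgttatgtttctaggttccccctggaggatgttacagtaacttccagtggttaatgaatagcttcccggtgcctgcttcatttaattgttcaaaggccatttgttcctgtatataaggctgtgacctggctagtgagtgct
Greb1, outer start, chr12:16800887-16801136, minus strand: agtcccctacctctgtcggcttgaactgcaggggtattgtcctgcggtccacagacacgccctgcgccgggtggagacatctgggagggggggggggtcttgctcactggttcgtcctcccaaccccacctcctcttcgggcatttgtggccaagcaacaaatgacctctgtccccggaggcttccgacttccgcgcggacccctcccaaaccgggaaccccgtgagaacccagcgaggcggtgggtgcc
In the Npl window the capitals mark an E-box (CACGTG) at bases -51 to -46, and in the Tmem252 window a CCAAT box at bases -243 to -239. A window at an inner Greb1 start also held a CCAAT box, on the opposite strand, at bases -216 to -212, while the outer window printed here held no searched motif. Among 32851 promoter windows of the same length, searched on both strands, 6.02% held the E-box and 33.8% the CCAAT box. The motifs searched without a match in any of the 7 windows of the 6 members that had one included an ETS core (CCGGAAG, 6.91% of all windows), a STAT site (TTCNNNGAA, 7.02%), a palindromic oestrogen response element (0.0639%), a vitamin D response element (0.067%), a steroid receptor palindrome (0.387%), an HNF1 site (0.371%), a FOXO site (GTAAACA, 3.17%) and a TATA box (TATAAA, 12.4%). The searched motifs do not overlap each other in the matches found, and no match says only that these letters are not in the window. The base composition of the windows differed widely, with 73.2% G and C in Ctnna2, 65.2% in the outer Greb1 window, 59.6% in Npl, 53.2% in Tmem252, 52.4% in Prkag3 and 41.6% in Fat2, against a median of 52.4% over all windows.

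The 7 genes spanned a wide range of abundance. Per kilobase of the gene length given in the tables, the mean level over all 15 libraries was 87.8 CPM for Susd2, 32.2 CPM for Tmem252, 5.83 CPM for Npl and 2.33 CPM for Prkag3. It was 0.612 CPM per kilobase for Ctnna2, 0.33 for Greb1 and 0.258 for Fat2. By mean CPM, without regard to length, Susd2 ranked 453 and Tmem252 ranked 1037 among the 15789 tested genes, whereas Npl ranked 7830 and the other 4 between 9823 and 12003. Depth differed accordingly, with 2889 to 9360 counts per library for Susd2 and 17 to 147 for Greb1. In RNA of whole kidney, fewer cells of a type and less RNA per cell cannot be told apart.

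**Figure D1:**
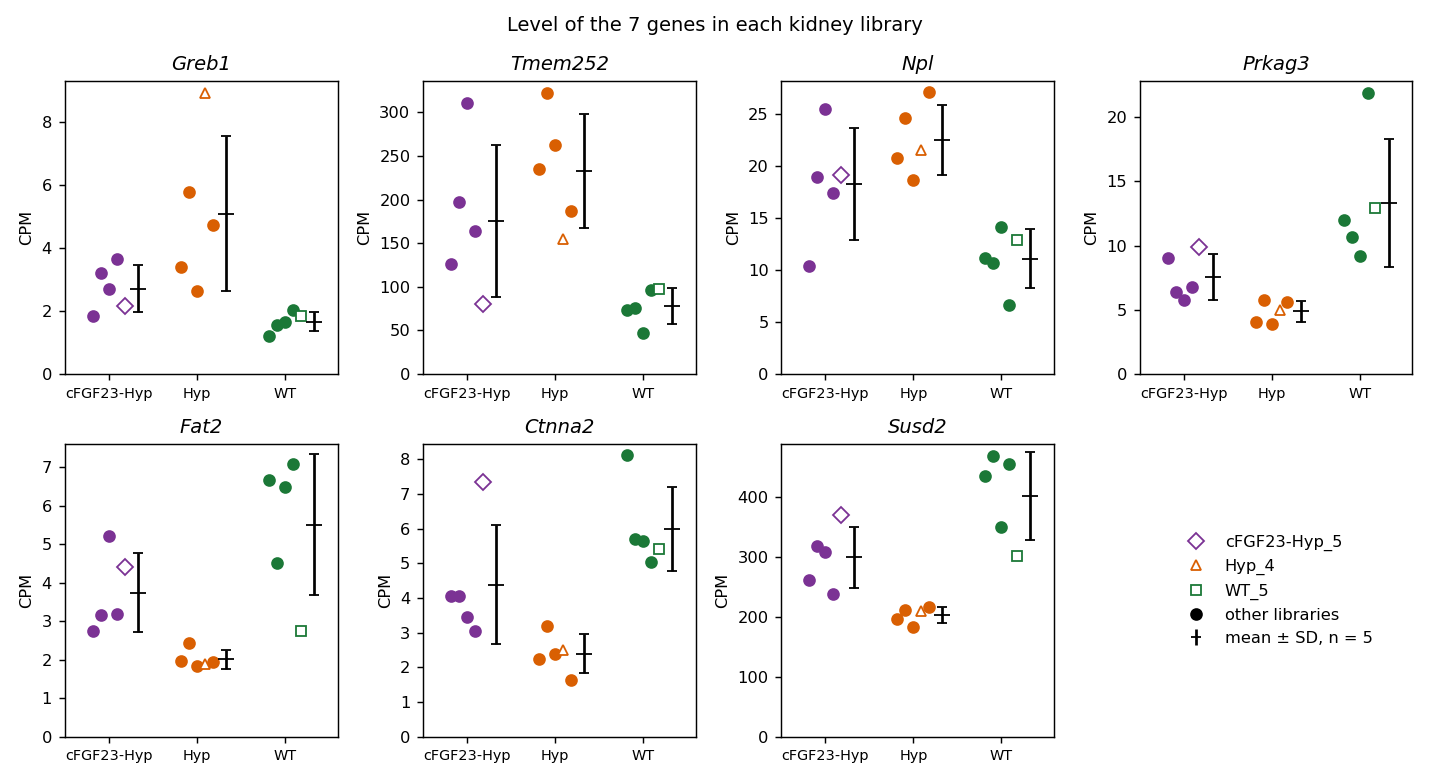
Level of each of the 7 genes in every library, in CPM, with cFGF23-Hyp, Hyp and WT from left to right. Points are mice and bars are group means with their SD. Hyp and WT points do not overlap for any of the genes, which were chosen because they differed between these groups. For Fat2 and Susd2 the cFGF23-Hyp points also lie clear of the Hyp points.

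Among the genes that were higher in Hyp, Tmem252 was the most abundant. Tmem252 (ENSMUSG00000048572, chromosome 19, 24651372 to 24659597, plus strand, as the deposited tables give it) was at 126, 197, 311, 164 and 80.2 CPM in cFGF23-Hyp_1 to cFGF23-Hyp_5. It was at 235, 322, 263, 155 and 187 CPM in Hyp_1 to Hyp_5, and at 73.2, 75.2, 47.1, 96.0 and 98.0 CPM in WT_1 to WT_5. The lowest Hyp library was above the highest WT library, while the treated libraries spread over nearly the whole span of both groups. The treated mean was 176 ± 87.2 CPM, with 232 ± 65.0 CPM in Hyp and 77.9 ± 20.7 CPM in WT kidneys (SD, n = 5 each). cFGF23-Hyp_3, which stood apart on the first component, was the highest treated library, and cFGF23-Hyp_5, which lay next to WT libraries on the second, was the lowest.

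Greb1 was the least abundant of the 7 genes by mean CPM. Greb1 (ENSMUSG00000036523, chromosome 12, 16720616 to 16850887, minus strand) was at 1.84, 3.21, 2.70, 3.66 and 2.16 CPM in cFGF23-Hyp_1 to cFGF23-Hyp_5. It was at 3.41, 5.78, 2.64, 8.92 and 4.73 CPM in Hyp_1 to Hyp_5, and at 1.22, 1.55, 1.67, 2.04 and 1.84 CPM in WT_1 to WT_5. Group means were 2.72 ± 0.744 CPM in cFGF23-Hyp, 5.09 ± 2.45 CPM in Hyp and 1.67 ± 0.309 CPM in WT kidneys (SD, n = 5 each). The highest value was that of Hyp_4, the library with adrenal cortex markers at 864 CPM. In Hyp_4, the summed level of 6 neuron markers was 6.19 CPM, against 1.25 to 2.05 CPM in the other 14 libraries. Without Hyp_4 the Hyp mean of Greb1 was 4.14 ± 1.40 CPM (SD, n = 4), the lowest Hyp library was still above the highest WT library, and the log2 fold change of Hyp over WT was 1.30 ± 0.25 (SE, edgeR adjusted p = 0.080) rather than 1.60. The part of adrenal tissue in the level of Greb1 was not tested.

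Npl had the smallest difference among the genes that were higher in Hyp. Npl (ENSMUSG00000042684, chromosome 1, 153378761 to 153425791, minus strand) was at 10.4, 18.9, 25.4, 17.4 and 19.1 CPM in cFGF23-Hyp_1 to cFGF23-Hyp_5. It was at 20.7, 24.6, 18.6, 21.5 and 27.1 CPM in Hyp_1 to Hyp_5, and at 11.1, 10.7, 14.1, 6.65 and 12.9 CPM in WT_1 to WT_5. Of the treated libraries, cFGF23-Hyp_1 lay within the WT range, cFGF23-Hyp_4 between the ranges of WT and Hyp, and the other 3 within the Hyp range. Means were 18.2 ± 5.32 CPM in cFGF23-Hyp, 22.5 ± 3.36 CPM in Hyp and 11.1 ± 2.82 CPM in WT kidneys (SD, n = 5 each).

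Of the genes that were lower in Hyp, Susd2 was the most abundant and varied least between mice. Susd2 (ENSMUSG00000006342, chromosome 10, 75472540 to 75479842, minus strand) was at 262, 318, 309, 239 and 370 CPM in cFGF23-Hyp_1 to cFGF23-Hyp_5. It was at 197, 212, 183, 210 and 216 CPM in Hyp_1 to Hyp_5, and at 435, 468, 350, 455 and 301 CPM in WT_1 to WT_5. Every treated library was above every Hyp library, and WT_5 was the lowest WT library, below 3 of the treated ones. Means were 299 ± 51.2 CPM in cFGF23-Hyp, 204 ± 13.7 CPM in Hyp and 402 ± 72.6 CPM in WT kidneys (SD, n = 5 each), and the coefficient of variation was 6.75% over the Hyp mice. The summed level of the proximal tubule markers was also lower in every Hyp library except Hyp_3 than in any treated library, and lower in every Hyp library than in any WT library, and its part in the level of Susd2 was not tested.

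Prkag3 had its highest value in WT_4. Prkag3 (ENSMUSG00000006542, chromosome 1, 74778081 to 74788380, minus strand) was at 9.02, 6.37, 5.73, 6.77 and 9.89 CPM in cFGF23-Hyp_1 to cFGF23-Hyp_5. It was at 4.09, 5.78, 3.92, 4.97 and 5.60 CPM in Hyp_1 to Hyp_5, and at 12, 10.7, 9.20, 21.9 and 12.9 CPM in WT_1 to WT_5. The treated libraries overlapped with both groups, with cFGF23-Hyp_3 below the highest Hyp library and cFGF23-Hyp_5 above the lowest WT library. Means were 7.56 ± 1.80 CPM in cFGF23-Hyp, 4.87 ± 0.849 CPM in Hyp and 13.3 ± 4.97 CPM in WT kidneys (SD, n = 5 each). The summed level of 8 skeletal muscle markers was 1.61 to 3.03 CPM in cFGF23-Hyp, 2.0 to 12.5 CPM in Hyp and 1.22 to 2.11 CPM in WT kidneys. The highest sum was that of Hyp_2, and 6 of the 8 were under the filter on low counts. Their part in the level of Prkag3 was not tested.

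Fat2 and Ctnna2, both of cell adhesion, were low in all libraries. Fat2 (ENSMUSG00000055333, chromosome 11, 55141435 to 55227390, minus strand) was at 2.76, 3.16, 5.22, 3.18 and 4.4 CPM in cFGF23-Hyp_1 to cFGF23-Hyp_5. It was at 1.98, 2.43, 1.84, 1.88 and 1.93 CPM in Hyp_1 to Hyp_5, and at 6.68, 4.52, 6.48, 7.09 and 2.76 CPM in WT_1 to WT_5. The Hyp libraries lay close together below all treated libraries, and WT_5 was at the level of the lowest treated library. Means were 3.75 ± 1.03 CPM in cFGF23-Hyp, 2.01 ± 0.241 CPM in Hyp and 5.51 ± 1.83 CPM in WT kidneys (SD, n = 5 each). The summed level of 5 epidermis markers, a tissue in which Fat2 is known, was 9.45 to 13.5 CPM in cFGF23-Hyp, 8.52 to 14.8 CPM in Hyp and 8.55 to 13.4 CPM in WT kidneys, so these ranges overlapped.

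Ctnna2 (ENSMUSG00000063063, chromosome 6, 76858620 to 77956682, minus strand) was at 4.05, 4.05, 3.45, 3.04 and 7.34 CPM in cFGF23-Hyp_1 to cFGF23-Hyp_5. It was at 2.25, 3.19, 2.39, 2.49 and 1.63 CPM in Hyp_1 to Hyp_5, and at 8.12, 5.70, 5.65, 5.05 and 5.42 CPM in WT_1 to WT_5. Of the treated libraries, cFGF23-Hyp_5 lay within the WT range and cFGF23-Hyp_4 within the Hyp range, and the other 3 lay between both. Means were 4.39 ± 1.71 CPM in cFGF23-Hyp, 2.39 ± 0.557 CPM in Hyp and 5.99 ± 1.22 CPM in WT kidneys (SD, n = 5 each). The sum of the neuron markers was 1.47 to 1.85 CPM in cFGF23-Hyp, 1.91 to 6.19 CPM in Hyp and 1.25 to 1.93 CPM in WT kidneys. The highest sum was that of Hyp_4, with 1.91 to 2.05 CPM in the other Hyp libraries. Of the 6 neuron markers, 1 passed the filter on low counts, and their part in the level of Ctnna2 was not tested.

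Differences between groups were tested on the counts with edgeR's quasi-likelihood test over all 15789 genes, with a Benjamini-Hochberg adjusted p below 0.05 as the threshold. For Hyp against WT, the contrast that chose the genes, all 7 passed, where 54 genes (0.342% of those tested) passed in all, 28 higher (0.177%) and 26 lower in Hyp (0.165%), and nothing is read from that count. The log2 fold changes were 1.60 ± 0.29 (SE) for Greb1, 1.58 ± 0.30 for Tmem252 and 1.02 ± 0.21 for Npl. They were -1.45 ± 0.22 for Prkag3, -1.45 ± 0.25 for Fat2, -1.31 ± 0.24 for Ctnna2 and -0.98 ± 0.13 for Susd2. No overlap between the Hyp and WT libraries was seen for 7 of the 7 genes, and for 5.74% of all tested genes. All 7 were also called by DESeq2 (2.26% of genes called in all), by limma-voom (0.481%), in a fit of only these 2 groups (3.33%), without WT_5 and cFGF23-Hyp_5 (1.43%) and without these and cFGF23-Hyp_3 (9.43%). With WT_5 counted as Hyp, the genotype on its label, 2 of the 7 passed, Fat2 and Susd2 (0.605% of genes called in all). Without WT_5, cFGF23-Hyp_5 and Hyp_4, 5 passed (0.606%), and Greb1 and Npl did not, with edgeR adjusted p of 0.0547 and 0.074. When 1 library was left out, 1 to 3 of the 7 passed if it was a Hyp library or 1 of the WT libraries other than WT_5, and of the 7 only Susd2 passed in all 15 of these fits.

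The comparison of cFGF23-Hyp with Hyp kidneys asks how these genes differed after the vector. The Hyp mice received PBS, and no group with a vector lacking cFGF23 was analysed here. Delivery of the vector and cFGF23 itself therefore cannot be told apart. This comparison shares the Hyp libraries with the contrast that chose the genes. A Hyp library that was by chance high or low thus enters both, with opposite signs. The log2 fold changes of cFGF23-Hyp over Hyp were -0.91 ± 0.29 (SE) for Greb1, -0.40 ± 0.29 for Tmem252 and -0.31 ± 0.21 for Npl. They were 0.63 ± 0.23 for Prkag3, 0.88 ± 0.25 for Fat2, 0.87 ± 0.24 for Ctnna2 and 0.56 ± 0.13 for Susd2. None of the 7 genes passed edgeR's test, with adjusted p between 0.204 (Susd2) and 0.609 (Tmem252), and 0 of the 15789 genes (0%) passed in all, with 1647 at an unadjusted p below 0.05. DESeq2 called Susd2 (adjusted p = 0.0161) and 116 genes in all (0.735%), and limma-voom called none of the 7 and 2 genes in all (0.0127%). In the authors' deposited table of this comparison, Susd2 (log2 fold change 0.56, adjusted p = 0.0043) and Fat2 (0.88, adjusted p = 0.043) were below 0.05, as were 94 of its 28110 genes (0.334%), while the other 5 genes had adjusted p of 0.15 to 0.74 in the authors' deposited table. The treated and Hyp libraries did not overlap for the same 2 genes, Fat2 and Susd2, against 1.84% of all tested genes.

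Of these differences, 2 depended on single libraries by more than 1.5 times. The log2 fold change of Tmem252 over Hyp was -0.71 without cFGF23-Hyp_3, -0.22 without cFGF23-Hyp_5 and -0.26 without Hyp_2, and that of Npl was -0.16 without cFGF23-Hyp_1. That of Greb1 was -0.61 ± 0.25 without Hyp_4.

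**Figure D2:**
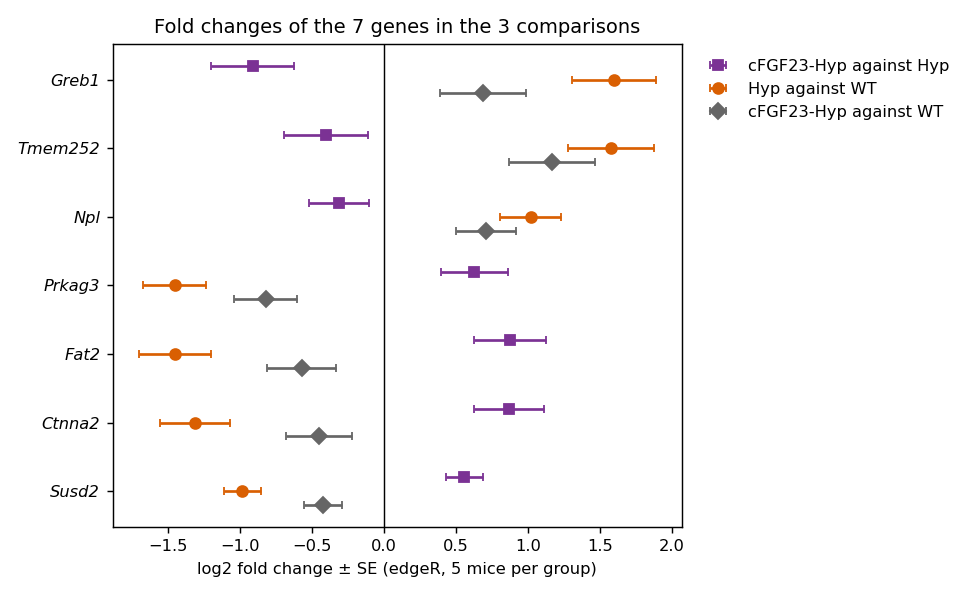
Log2 fold change of each gene from edgeR's quasi-likelihood test with all 15 libraries, for cFGF23-Hyp over Hyp, cFGF23-Hyp over WT and Hyp over WT, with standard errors as bars. The comparisons share libraries, so their values are not independent. For Susd2 the values are 0.56, -0.42 and -0.98.

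In the comparison with WT kidneys, which shares the WT libraries with the contrast that chose the genes, the treated kidneys had log2 fold changes of 0.69 ± 0.30 (SE) for Greb1, 1.17 ± 0.30 for Tmem252 and 0.71 ± 0.21 for Npl. The values were -0.82 ± 0.22 for Prkag3, -0.57 ± 0.24 for Fat2, -0.45 ± 0.23 for Ctnna2 and -0.42 ± 0.13 for Susd2. None of the 7 genes passed edgeR's test, with adjusted p between 0.668 and 0.895, and 0 genes (0%) passed in all, with 905 at an unadjusted p below 0.05, 6 by DESeq2 (0.038%) and 0 by limma-voom. The libraries overlapped for all 7 genes, while 0.488% of all tested genes showed no overlap.

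Without WT_5 and cFGF23-Hyp_5, 2 of the 7 genes passed in the comparison of cFGF23-Hyp with WT kidneys, where 177 genes (1.11%) passed in all. For Tmem252, cFGF23-Hyp_5 was the lowest treated library (80.2 CPM) and WT_5 the highest WT library (98.0 CPM). For Susd2, cFGF23-Hyp_5 was the highest treated library (370 CPM) and WT_5 the lowest WT library (301 CPM). Leaving these out by itself sets the 2 groups further apart for both genes. Tmem252 was higher in treated than in WT kidneys (log2 fold change 1.45, edgeR adjusted p = 0.0214) and Susd2 was lower (-0.60, adjusted p = 0.016). In the same fit, none of the 7 passed for cFGF23-Hyp against Hyp, where 67 genes (0.421%) passed, or 63 (0.389%) with cFGF23-Hyp_3 also left out, and Susd2 had an adjusted p of 0.0924. The remaining treated and WT libraries then did not overlap for Tmem252, Prkag3, Ctnna2 and Susd2, against 4.9% of all tested genes, and the remaining treated and Hyp libraries did not overlap for Fat2 and Susd2, against 2.88%. With cFGF23-Hyp_3 left out as well, 583 genes (3.6%) passed against WT, among them Tmem252 (1.16, edgeR adjusted p = 0.0234), Fat2 (-1.03, adjusted p = 0.00827) and Susd2 (-0.65, adjusted p = 0.0077). For Fat2, cFGF23-Hyp_3 was the highest treated library (5.22 CPM) and WT_5 the lowest WT library (2.76 CPM).

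Each treated library was then placed between the WT and Hyp means on the log2 CPM scale, where 0 is the WT mean and 1 the Hyp mean of a gene. These positions rest on both reference means of a difference that chose the genes, and they carry no test. The mean position over the 5 treated libraries was 0.68 ± 0.46 for Tmem252, 0.67 ± 0.44 for Npl, 0.56 ± 0.24 for Prkag3, 0.45 ± 0.27 for Greb1, 0.44 ± 0.26 for Susd2, 0.38 ± 0.28 for Fat2 and 0.38 ± 0.37 for Ctnna2 (SD, n = 5 each). With spreads of this size, neighbours in that order did not differ beyond their spread, nor did the first and the last. Of the 35 positions, 30 lay between 0 and 1, and 16 were below 0.5, nearer to WT. Tmem252 in cFGF23-Hyp_3 was the farthest beyond the Hyp mean, at 1.30, and Ctnna2 in cFGF23-Hyp_5 the farthest beyond the WT mean, at -0.24.

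The treated libraries differed from each other in the same measure. The median position over the 7 genes was 0.41 in cFGF23-Hyp_1, 0.64 in cFGF23-Hyp_2, 0.58 in cFGF23-Hyp_3, 0.71 in cFGF23-Hyp_4 and 0.18 in cFGF23-Hyp_5. In cFGF23-Hyp_4 all 7 genes lay on the Hyp side, at 0.52 to 0.76, while in cFGF23-Hyp_5 6 of the 7 were below 0.5. In cFGF23-Hyp_3 the genes were spread from -0.00 (Fat2) to 1.30 (Tmem252). Without WT_5 and cFGF23-Hyp_5 the mean positions were 0.51 for Greb1, 0.85 for Tmem252, 0.66 for Npl, 0.63 for Prkag3, 0.51 for Fat2, 0.54 for Ctnna2 and 0.56 for Susd2, and 9 of 28 positions were below 0.5.

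**Figure D3:**
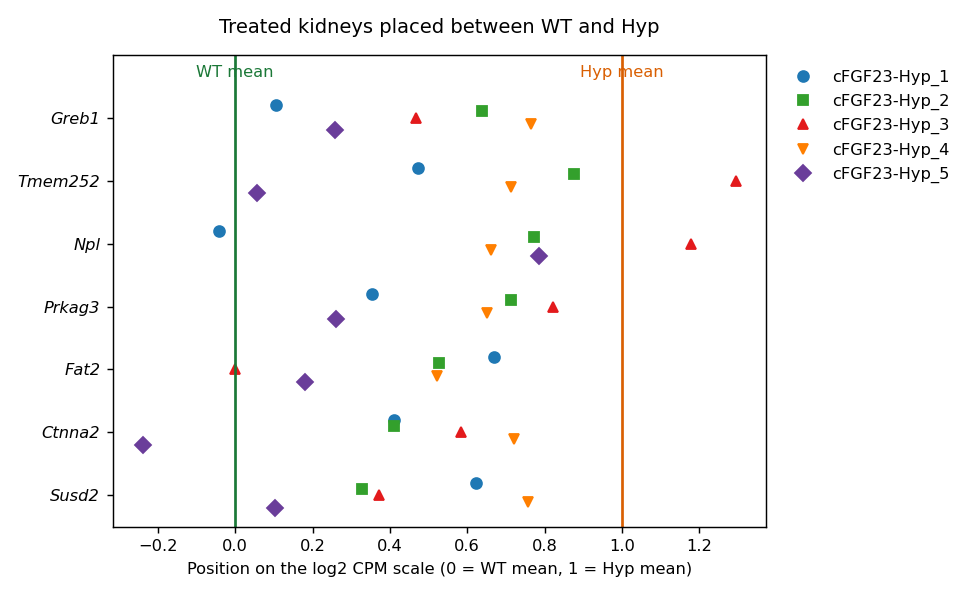
Position of each cFGF23-Hyp library between the WT mean (0) and the Hyp mean (1) of a gene, on the log2 CPM scale, with 1 point per library and lines at 0 and 1. Mean positions over the 5 libraries, which are not drawn, run from 0.38 (Fat2 and Ctnna2) to 0.68 (Tmem252). Of the 35 points, 30 lie between 0 and 1.

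The library labelled WT_5 was placed in the same way, with WT_1 to WT_4 as 0. It was at 0.72 for Fat2, 0.47 for Susd2, 0.29 for Npl and 0.28 for Tmem252, and at 0.13 for Greb1, 0.11 for Ctnna2 and -0.02 for Prkag3. It was thus nearer to Hyp for Fat2, near the middle for Susd2 and nearer to the other WT libraries for the remaining genes. Over all tested genes, WT_5 lay within the Hyp range on the second principal component, at -3.66. Which of its labels is right was not tested.

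Relatives of the 7 genes were read from lists of genes of the same family or pathway. Without the 7 genes themselves, none of the 56 tested genes on 6 lists passed edgeR's test in any of the 3 comparisons. For Hyp against WT 0.342% of all genes passed, so that a count of 0 among 56 is near the background. In the other 2 comparisons 0 genes passed in all, so none of the relatives could be among them. The median log2 fold change of Hyp over WT was 0.02 for 12 steroid receptors, their co-activators and Greb1l, -0.05 for 13 genes of sialic acid and amino sugar metabolism, 0.02 for 11 AMPK subunits and upstream kinases, 0.30 for 4 FAT and Dachsous cadherins, 0.11 for 11 catenins and their cadherins and 0.05 for 5 other sushi domain genes, against 0.00 over all tested genes. Among the most abundant of them, the glucocorticoid receptor gene Nr3c1 had 0.02 ± 0.08 (SE), the oestrogen-related receptor gene Esrra -0.27 ± 0.10 and the co-activator gene Ncoa3 0.05 ± 0.14. The oestrogen receptor gene Esr1 had a log2 fold change of 0.02 and was at 17.1 CPM over all libraries. The sialidase gene Neu1, which frees sialic acid in lysosomes, had -0.04 ± 0.13, and Slc17a5, which exports it from them, -0.11 ± 0.09 (SE). Gnpda1, a deaminase that takes amino sugars into glycolysis, had -0.05 ± 0.08. Among the other gamma subunits of AMPK, Prkag1 had -0.09 ± 0.15 and Prkag2 0.28 ± 0.09 (edgeR adjusted p = 0.188). The catalytic subunit gene Prkaa2 had -0.07 ± 0.07 (SE), and the genes of the upstream LKB1 complex had -0.07 ± 0.08 (Stk11) and -0.01 ± 0.08 (Cab39). Per kilobase, the mean level of Prkag1 was 9.53 CPM and that of Prkag2 6.97 CPM, both above the 2.33 CPM of Prkag3. The widely expressed alpha-catenin gene Ctnna1 had a log2 fold change of 0.11 ± 0.07 (SE) and was at 50.9 CPM per kilobase, against 0.612 for Ctnna2, and Fat1, a relative of Fat2 known in kidney podocytes and tubules, had 0.21 ± 0.11 and 5.18 CPM per kilobase, against 0.258 for Fat2. The cadherin ligand gene Dchs1 had 0.58 ± 0.18 and Fjx1, the homologue of a fly Golgi kinase gene, 0.30 ± 0.17 (SE). The beta-catenin gene Ctnnb1 had 0.11 ± 0.14 and the kidney cadherin gene Cdh16 -0.10 ± 0.07, and of the other sushi domain genes Susd6 had 0.03 ± 0.10 and Susd4 0.05 ± 0.13 (SE). The largest difference among the relatives was that of Susd3, at 44.0 ± 7.30 CPM in cFGF23-Hyp, 37.9 ± 5.52 CPM in Hyp and 67.2 ± 22.9 CPM in WT kidneys (SD, n = 5 each), with a log2 fold change of Hyp over WT of -0.83 ± 0.18 (SE) and an edgeR adjusted p of 0.0623.

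**Figure D4:**
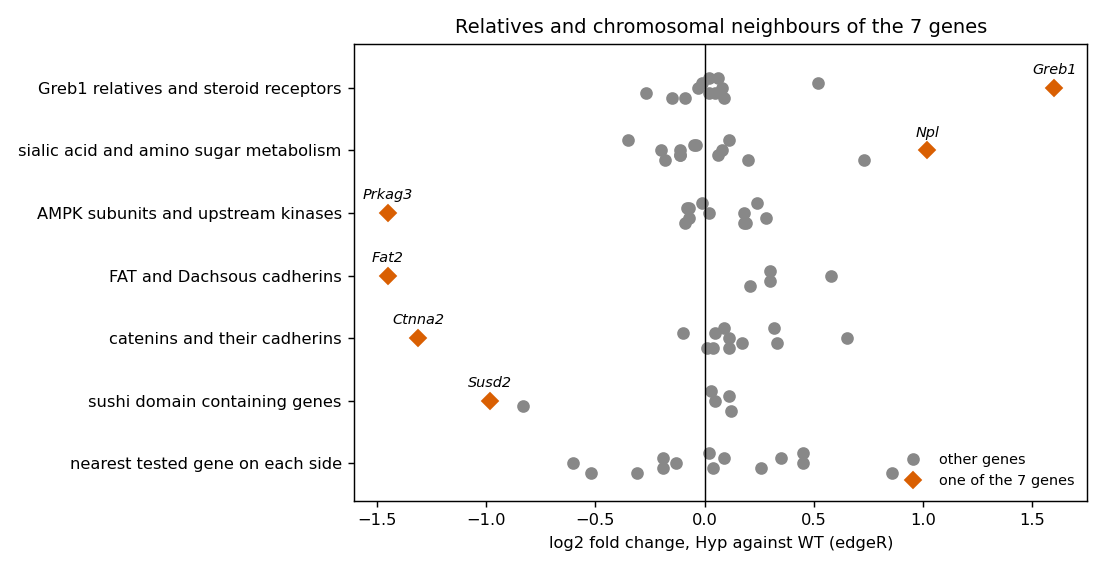
Log2 fold change of Hyp over WT (edgeR) for 6 of the 7 genes (diamonds; Tmem252 has no list), for the tested relatives on the list of each and, in the bottom row, for the nearest tested gene on each side of the 7 genes (grey points, 1 per gene). The relatives' medians lie between -0.05 and 0.30, Susd3 (-0.83) is the relative farthest from 0, and the 14 neighbours run from -0.60 to 0.86.

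Neighbours on the chromosome were read from the coordinates in the deposited tables. The nearest tested gene on each side of each member gave 14 genes, and 0 of them passed for Hyp against WT, where 0.342% of all genes passed, so that a count of 0 is near the background. Their log2 fold changes of Hyp over WT ran from -0.60 to 0.86, with adjusted p of at least 0.212 by edgeR. Pgm5, 0.783 kb from Tmem252, had 0.35 ± 0.21 (SE). Cyp27a1, which encodes a vitamin D and sterol hydroxylase, lies 1.03 kb from Prkag3 and had -0.19 ± 0.08. Cabin1, 2.1 kb from Susd2, had 0.09 ± 0.09, and Dhx9, 15.4 kb from Npl, had 0.02 ± 0.21. Lpin1, which encodes a phosphatidate phosphatase and lies 23.6 kb from Greb1, had -0.52 ± 0.20, and Sparc, which encodes a matrix protein and lies 57.9 kb from Fat2, had 0.45 ± 0.15. The genes that overlap Greb1 and Ctnna2 on either strand had at most 7 counts in any library, where Greb1 had 17 to 147 and Ctnna2 28 to 113, and whether reads are shared between them was not tested.

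The genes whose levels were most alike to each member over the 15 libraries were taken by Pearson's r of log2 CPM among 11973 protein-coding genes, as a measure of likeness with no test, since the difference between Hyp and WT chose the members. For Tmem252 they were Plscr1 (r = 0.91) and Ttr (0.91), for Npl the transporter gene Slc17a4 (0.91) and Tbxas1 (0.89), and for Greb1 the sulfate transporter gene Slc13a1 (0.87) and Cavin2 (0.84). For Prkag3 they were Nat2 (0.90) and Chsy1 (0.87), for Fat2 Tspan3 (0.93) and the urate transporter gene Slc22a12 (0.92), for Ctnna2 the peroxisomal oxidase gene Acox3 (0.95) and Macrod2 (0.92), and for Susd2 Ftcd (0.95) and Acsm1 (0.93). With group means taken out, and without WT_5 and cFGF23-Hyp_5, r over the 13 remaining libraries ran from 0.47 (Ftcd with Susd2) to 0.87 (Nat2 with Prkag3) for these 14 pairs. Ttr, a plasma carrier of thyroid hormone made mainly by the liver, was the most abundant gene of a list of 6 hepatocyte markers, whose sums were higher in every Hyp than in every WT library. Alb, the defining hepatocyte gene, was at 3.13 to 7.26 CPM in cFGF23-Hyp, 5.79 to 39.0 CPM in Hyp and 3.47 to 9.31 CPM in WT kidneys, and its part in the level of Tmem252 was not tested.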

How the data were processed

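RNA of whole kidney was sequenced with 1 library per mouse, and groups follow the sample titles. The NEBNext Ultra RNA kit was used, per the labels' protocols. The strand setting, the aligner, the counter, the gene annotation and the test behind the authors' values are unstated in the sources used here. The build is mm10 per the submitters' processing notes, but 538 of 25727 genes (2.09%) start where GRCm38 has them, so coordinates are those of the deposited tables. The authors deposited 2 tables with raw read counts per gene. They also deposited a normalized signal, equal to the counts times 1 constant per library in 20 of 20 columns. The log2 fold change and the p-value per gene in the deposited tables are the authors' own. The 20 FPKM columns were not used.

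The tables (28216 and 28110 genes) were joined on the 27122 shared gene IDs, and Hyp counts were identical in both. Unnamed entries (299, with 0.219% to 0.363% of counts) were left out. Counts were tested with edgeR 4.0.16 under R 4.3.3 (quasi-likelihood F test, TMM scaling, filterByExpr, 15 libraries in 1 fit, group means only), and adjusted p-values come from it unless another tool is named. The SE of a fold change is its log2 value over the root of F. log2 CPM used a prior count of 2. Alternatives were DESeq2 1.42.0, limma-voom (limma 3.58.1), other filters and size factors, fits of 2 groups, a replicate block, WT_5 placed in Hyp, and left-out libraries. The fit without WT_5, cFGF23-Hyp_5 and Hyp_4 was added after seeing the data. Within groups, every pair of libraries differed beyond sampling noise (chi-square per degree of freedom at least 8.23). Errors are over mice, with none for single libraries.

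The members, gene lists and alternatives were chosen with earlier results of these data known. Genes named are the members, Phex, the nearest tested gene on each side, the 2 most alike by r, relatives past the test and the 3 most abundant of each list. Esr1, Prkag1, Prkag2 and the examples among neighbours were singled out after their values were seen. Promoter windows came from RefSeq (GRCm38.p6), with 6 of 7 members matched. A result on a further gene is not reported here.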

Additional observations from a re-analysis of the deposited data

Results flagged for a closer look

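In 3 of the 21 sets of 5 libraries (7 genes in 3 groups), 1 library stood far from the other 4 by Dixon's ratio of gap to range, whose critical value is 0.710. Chance alone would flag about 1 set in 20. Ctnna2 was at 7.34 CPM in cFGF23-Hyp_5, against 3.04 to 4.05 CPM in the other 4 treated libraries (ratio 0.765). Ctnna2 was also at 8.12 CPM in WT_1, against 5.05 to 5.70 CPM in the other 4 WT libraries (ratio 0.789). Fat2 was at 2.43 CPM in Hyp_2, against 1.84 to 1.98 CPM in the other 4 Hyp libraries (ratio 0.769).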

How the results depend on the processing

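No log2 fold change of the 7 genes turned its sign under any of the 26 alternatives in any comparison, and all 147 recomputed mean positions moved by less than 1 SD. For Hyp against WT, 54 genes and all 7 members were called with all libraries. DESeq2 called 356 genes, fits of only the 2 groups 516, the fit with WT_5 placed in Hyp 97 with 2 members, that without WT_5 and cFGF23-Hyp_5 228, that also without cFGF23-Hyp_3 1527, and that without WT_5, cFGF23-Hyp_5 and Hyp_4 96. With the replicate number as a block, 15 genes and 3 members (Greb1, Prkag3 and Susd2) were called, while the deviations of libraries with the same number correlated above 0.1 in 6 of 15 pairs, so the numbers were not taken to pair mice. Leaving out 1 library gave 7 to 345 genes and 1 to 7 members. Susd2 was called in all 26 alternatives, Prkag3 in 24, Fat2 in 17, Greb1 in 16, Tmem252 and Ctnna2 in 15 and Npl in 13. For cFGF23-Hyp against Hyp, where 0 genes were called, DESeq2 called 116 with 1 member, limma-voom 2, the fit without WT_5 and cFGF23-Hyp_5 67, that also without cFGF23-Hyp_3 63, and that without WT_5, cFGF23-Hyp_5 and Hyp_4 47. Leaving out 1 library gave 0 to 25 genes and 0 members. For cFGF23-Hyp against WT, with 0 genes called, DESeq2 called 6, the fit with WT_5 in Hyp 1, that without WT_5 and cFGF23-Hyp_5 177 with 2 members, that also without cFGF23-Hyp_3 583 with 3, and that without WT_5, cFGF23-Hyp_5 and Hyp_4 148 with 2. Leaving out 1 library gave 0 to 3 genes and 0 members. The cause of these changes was not tested. At 17 to 147 counts per library, Greb1 has the least depth of the 7 genes.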
